A study of Mus musculus with 45 samples.

Results

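The comparison described here is that of homozygous with heterozygous ΔG mouse embryonic stem cells (ESCs) kept in the undifferentiated ES state. Its members were chosen by their column labels: the 3 homozygous columns (ES_G_hom) and the 3 heterozygous columns (ES_G_het) of the table of G samples. These are 6 of the 24 RNA-seq samples and 6 of the 45 samples in the series. The study asks which genes depend on 5430416N02Rik, a long noncoding RNA gene expressed in ESCs. In ΔG cells a GFP-IRES-Puro cassette replaces the body of the gene and the promoter is kept. Heterozygous cells have 1 such allele and homozygous cells have both, so the cassette is present in each group, and no unedited ESCs are among the RNA-seq samples. All cells derive from the D3 line (strain 129), were grown on gelatin in serum with LIF, and received the vehicle DMSO for 48 hours. The ES state is set here against ΔG cells given 2 µM retinoic acid (RA) for 48 hours, and against ΔPG ESCs, in which the promoter is deleted together with the gene body. The sample labels name no clones. A figure of the paper's supplement heads its RNA-seq columns He1 and Ho1, and if these stand for 1 clone of each genotype, clone and genotype cannot be told apart.

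Cells sense oxygen through prolyl hydroxylases of the Egln family, which mark the α subunits of hypoxia-inducible factor (HIF) for degradation. Stabilized HIF binds a short core motif and activates genes of glucose uptake, glycolysis, collagen hydroxylation and mitochondrial turnover, and the Egln genes themselves are among its targets. Pluripotent mouse cells rely strongly on glycolysis, and a small, fluctuating share of them expresses genes of the embryo at the time of genome activation, such as Zscan4.

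Values are regularized log (rlog) values, which DESeq2 gives on the log2 scale after normalization, and differences are homozygous minus heterozygous in log2 units. The files hold no counts, so the depth of each library is unknown. Of 33924 genes in the table, 22048 varied and were tested, and 11876 were listed at 0 in each sample. Over the genes tested, 58.5% had a negative difference, and limma gave an unadjusted p under 0.05 for 3406 (15.4%). Of the 22048 genes, 11654 had a mean value of at least 3. These shares include the genes below that level and were not computed without them. For lists of expressed genes they are therefore not a matched background. Across genes with a mean value of at least 3, correlations ranged from 0.995 to 0.996 between replicates of a genotype and from 0.992 to 0.993 between genotypes. The median SD of a gene over 3 replicates was 0.10 in heterozygous and 0.09 in homozygous samples. The mitochondrial ribosomal RNA mt-Rnr2 was the highest gene of each sample. Its values were 19.39, 19.43 and 19.49 in heterozygous and 19.11, 19.12 and 19.15 in homozygous samples.

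The deleted gene, 5430416N02Rik (ENSMUSG00000084877.1), had values of 5.58, 5.54 and 5.50 in the heterozygous samples and of 2.63, 2.77 and 2.85 in the homozygous samples. The groups were far apart, with a difference of -2.79 ± 0.09 (SE, n = 3; limma, Benjamini-Hochberg adjusted p = 3.64e-05). The gene lies on the minus strand of chr5:100849861-100858535 (NCBIM37). Within 1 Mb of it, 20 other genes were tested, and limma called 0 of them, with an unadjusted p under 0.05 for 2. Their median difference was 0.01, with a range from -0.15 to 0.25. Lin54, a subunit of the MuvB complex and the next gene upstream, had a difference of -0.08 (limma, Benjamini-Hochberg adjusted p = 0.746). Sec31a, a coat protein of vesicles that leave the endoplasmic reticulum and the next gene downstream, had a difference of 0.14 (limma, Benjamini-Hochberg adjusted p = 0.371).

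The ESC label was checked against marker genes. Pou5f1 had values of 11.53, 11.51 and 11.48 in heterozygous and 11.52, 11.52 and 11.53 in homozygous samples, and Nanog lay between 11.28 and 11.33 in the 6 samples. The summed level (2 to the power of the rlog value) of Pou5f1, Sox2, Nanog, Zfp42 and Esrrb was 10753, 10707 and 10370 in heterozygous and 10573, 10576 and 10623 in homozygous samples, with Pou5f1 the most abundant. Sox2, which sustains pluripotency with Pou5f1, had a difference of -0.13 (limma, Benjamini-Hochberg adjusted p = 0.0995) and Zfp42, a marker of naive cells, one of 0.11 (limma, Benjamini-Hochberg adjusted p = 0.0539), both under the limit on size. Limma called 0 of the 28 core and naive pluripotency genes tested, with an unadjusted p under 0.05 for 13, 3 higher and 5 lower without the limit on size, and a median of -0.01, whose sign changed with median centring. Of the fibroblast markers, Postn lay between 0.81 and 0.85 and Col1a2, the most abundant, between 3.27 and 3.88, and the summed level of Col1a1, Col1a2, Col3a1, Postn and Thy1 was 32.9, 39.1 and 36.6 in heterozygous and 29.9, 34.5 and 33.5 in homozygous samples. Primitive endoderm markers, with Pdgfra the most abundant, summed to 53.5, 55.0 and 59.8 against 47.4, 60.8 and 57.0. The wider primitive endoderm list of 24 genes, with Apoe the most abundant, summed to 5810, 5897 and 5866 against 6456, 6439 and 6574. Limma called 0 of its members, with an unadjusted p under 0.05 for 6. Trophoblast markers, with Gata3 the most abundant, summed to between 17.4 and 20.7 in each of the 6 samples, with Elf5 between -1.81 and -1.77. The wider trophoblast list of 13 genes, with Peg10 the most abundant, summed to 781, 771 and 853 against 987, 985 and 992. Its 1 called member, Krt19, was lower (-0.82). Neural markers summed to 319, 373 and 313 against 385, 363 and 350, with Nes the larger part in each heterozygous and Tubb3 in each homozygous sample, while Sox1 was listed at 0. Tubb3, a neuronal tubulin, had a difference of 0.40 (limma, Benjamini-Hochberg adjusted p = 0.0448), under the limit on its size. The wider neural progenitor list of 18 genes summed to 749, 797 and 703 against 671, 670 and 596, with Ncam1 the most abundant, and 2 of its members were called, Prom1 (-1.18) and Ncam1 (-0.57), each lower, the latter not without homozygous replicate 3 (-0.49). The part of such cells in the results was not tested.

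Calls required 2 things of a gene in limma, a difference over 0.5 in size and an adjusted p (Benjamini-Hochberg, over the genes tested) under 0.1. Limma called 217 of 22048 genes (0.984%), of which 78 (0.354%) were higher and 139 (0.630%) lower in homozygous cells. After quantile normalization of the 6 samples 76 were higher and 78 lower, so the surplus of lower genes depends on the scaling: 64.1% of the calls were lower as deposited, 50.6% after quantile normalization and 60.9% after median centring (84 higher, 131 lower). Without homozygous replicate 1, 89 genes were called lower. Of the 217 genes, 109 kept their call without each sample in turn, 45 higher and 64 lower. With no limit on the size of the difference, 528 genes (2.39%) were higher and 624 (2.83%) lower. The median difference over the genes tested was -0.01. Of the 22048 genes, 1934 had each homozygous sample above each heterozygous one, and 1984 had each below. The largest rises and falls named below were picked among called genes without overlap, so their lack of overlap was set by the choice. Protein-coding genes made up 203 of the calls, and 3 were lincRNAs.

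**Figure D1:**
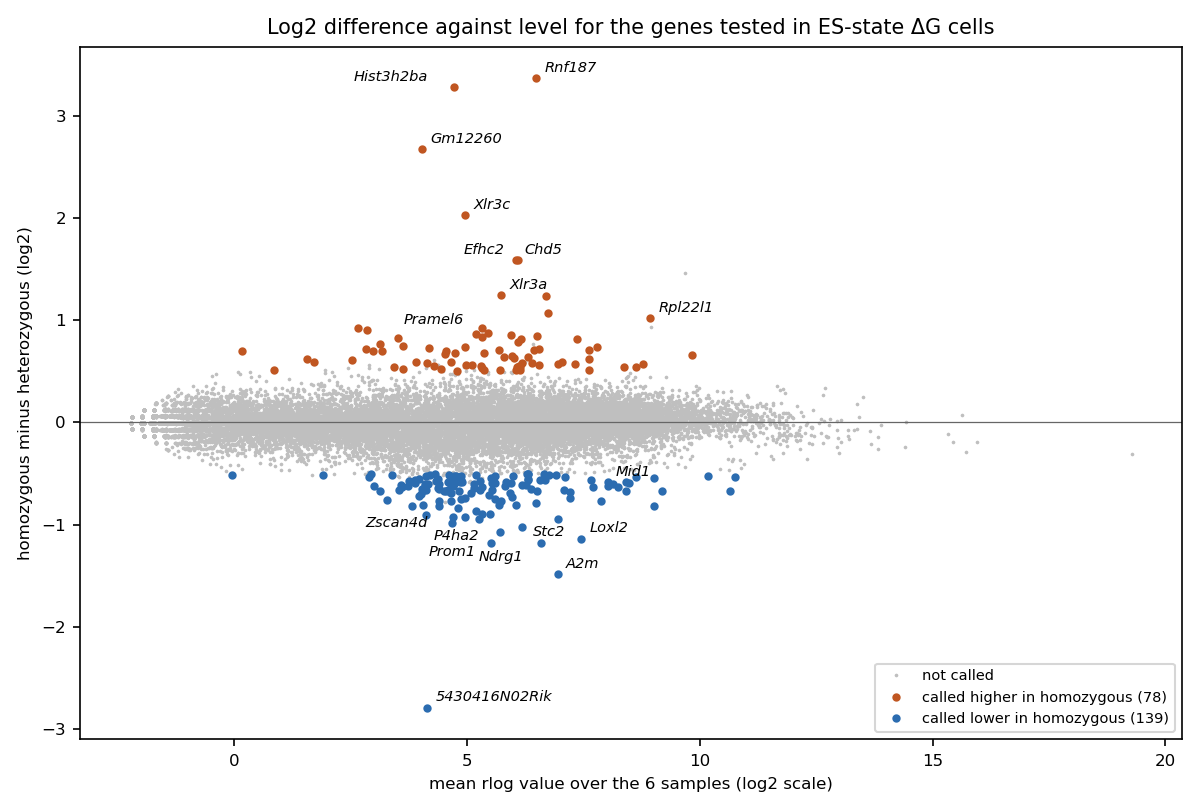
Homozygous minus heterozygous difference (log2) against the mean rlog value of 6 ES-state ΔG samples, 1 point a gene, with 78 genes called higher in orange and 139 called lower in blue. 5430416N02Rik (-2.79) lies at the bottom and Rnf187 (3.36) and Hist3h2ba (3.28) at the top.

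Targets of HIF had the lowest median of the 47 gene lists described. Of 21 hypoxia targets tested, 9 were called, each of them lower: Ndrg1, P4ha2, Ddit4, Egln3, Bnip3, Pfkfb3, P4ha1, Slc2a1 and Egln1. The median difference of the list was -0.45, against -0.01 over the genes tested, and it lay between -0.50 and -0.39 under the other settings, both scaling alternatives included. With no limit on the size, 13 were lower and 1 was higher. In these bulk samples fewer cells with a transcript and less of it per cell cannot be told apart.

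Ndrg1, a stress-response gene strongly induced by low oxygen, had values of 7.17, 7.18 and 7.17 in heterozygous and 6.11, 5.87 and 6.00 in homozygous samples. It fell by 1.18 (SE 0.08; limma, Benjamini-Hochberg adjusted p = 0.00043), and the groups were far apart. P4ha1 and P4ha2 encode catalytic subunits of collagen prolyl 4-hydroxylase. P4ha2 had values of 6.12, 6.15 and 6.46 against 5.33, 4.94 and 5.23, a difference of -1.07 (limma, Benjamini-Hochberg adjusted p = 0.00894). P4ha1 had values of 8.56, 8.48 and 8.61 against 7.87, 7.85 and 8.04, a difference of -0.63 (limma, Benjamini-Hochberg adjusted p = 0.00401). Each homozygous sample was below each heterozygous one for both genes. Ddit4, an inhibitor of mTORC1, had values of 7.56, 7.42 and 7.33 against 6.43, 6.37 and 6.66, a difference of -0.95 (limma, Benjamini-Hochberg adjusted p = 0.00348). Bnip3, a mitochondrial receptor for mitophagy, had values of 9.49, 9.45 and 9.34 against 8.72, 8.51 and 8.61, a difference of -0.81 (limma, Benjamini-Hochberg adjusted p = 0.000978). The groups of these genes did not overlap either.

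Among the oxygen sensors, Egln3 had values of 6.05, 5.84 and 5.91 in heterozygous and 4.98, 4.94 and 5.20 in homozygous samples, a difference of -0.89 (limma, Benjamini-Hochberg adjusted p = 0.00552). Egln1 had values of 6.46, 6.68 and 6.44 against 5.81, 6.09 and 6.17, a difference of -0.50 (limma, Benjamini-Hochberg adjusted p = 0.0754). The call of Egln1 rested on all 6 samples: it ended without each of them in turn, with differences from -0.57 to -0.39, and after quantile normalization or median centring. The angiogenic factor Vegfa had a difference of -0.49 (limma, Benjamini-Hochberg adjusted p = 0.0297) and the mitochondrial protein Higd1a one of -0.45 (limma, Benjamini-Hochberg adjusted p = 0.00552), both short of the limit on size. These genes and Hif1a were chosen after their values were seen. Hif1a, which encodes a HIF α subunit, was the member higher under the rule with no limit on size, with values of 9.22, 9.21 and 9.27 against 9.48, 9.38 and 9.46 (difference 0.21; limma, Benjamini-Hochberg adjusted p = 0.0355).

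Promoters from RefSeq (GRCm38.p6, 300 bases around a gene's start) were found for 17 of the 21 hypoxia targets and searched on both strands for the core letters ACGTG and GCGTG of the hypoxia response element, the first of which overlaps the E-box CACGTG. At least 1 of these words was present in 19 of their 24 promoters (79.2%), and in each of the 9 promoters found for 8 of the 9 called genes. Over all 32851 promoters of this length 43.8% held one, so a match is frequent, and it is a description of the letters and not a binding site. Among glycolysis genes, 29 of 37 promoters (78.4%) held one. No entry was found for Ndrg1. The promoters of 5 called members are shown as examples, with each match in capitals, and those of Pfkfb3, Slc2a1 and Egln1 are not printed. They lie at chr7:138909457-138909756 on the minus strand (Bnip3), chr10:59951721-59952020 on the minus strand (Ddit4), chr12:54203825-54204124 on the minus strand (Egln3), chr10:59323046-59323345 on the plus strand (P4ha1) and chr11:54100674-54100973 on the plus strand (P4ha2). Bnip3 has 5 matches, P4ha2 has 4, P4ha1 has 3, Ddit4 has 2 and Egln3 has 1.
Bnip3: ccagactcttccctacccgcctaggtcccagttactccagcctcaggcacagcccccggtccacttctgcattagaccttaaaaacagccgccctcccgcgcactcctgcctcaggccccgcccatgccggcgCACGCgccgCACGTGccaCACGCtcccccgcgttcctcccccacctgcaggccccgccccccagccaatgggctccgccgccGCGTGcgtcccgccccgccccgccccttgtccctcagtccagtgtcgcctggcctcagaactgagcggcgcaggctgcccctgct
P4ha2: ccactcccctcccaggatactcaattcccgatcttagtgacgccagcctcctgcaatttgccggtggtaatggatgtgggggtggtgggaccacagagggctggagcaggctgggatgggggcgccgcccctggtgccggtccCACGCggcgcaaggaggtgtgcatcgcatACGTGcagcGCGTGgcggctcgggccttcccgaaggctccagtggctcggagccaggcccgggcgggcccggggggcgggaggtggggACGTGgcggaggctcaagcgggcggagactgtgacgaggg
P4ha1: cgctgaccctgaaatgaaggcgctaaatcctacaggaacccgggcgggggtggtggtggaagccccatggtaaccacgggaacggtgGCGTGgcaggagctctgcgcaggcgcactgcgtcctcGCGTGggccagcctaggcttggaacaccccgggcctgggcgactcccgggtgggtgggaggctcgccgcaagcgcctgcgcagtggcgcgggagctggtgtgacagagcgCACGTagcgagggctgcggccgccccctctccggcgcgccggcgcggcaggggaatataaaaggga
Ddit4: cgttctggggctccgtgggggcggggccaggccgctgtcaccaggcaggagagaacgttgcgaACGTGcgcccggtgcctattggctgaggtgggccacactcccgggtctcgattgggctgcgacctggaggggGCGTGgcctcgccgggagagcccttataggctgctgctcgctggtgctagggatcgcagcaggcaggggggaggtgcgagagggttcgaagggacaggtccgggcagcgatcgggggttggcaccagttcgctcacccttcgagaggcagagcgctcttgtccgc
Egln3: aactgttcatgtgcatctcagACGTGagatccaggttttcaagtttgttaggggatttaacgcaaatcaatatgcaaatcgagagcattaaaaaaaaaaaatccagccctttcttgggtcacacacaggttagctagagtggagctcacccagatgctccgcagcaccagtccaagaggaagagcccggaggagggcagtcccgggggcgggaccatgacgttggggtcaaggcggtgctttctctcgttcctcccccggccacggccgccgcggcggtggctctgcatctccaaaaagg

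Most glycolysis genes had lower values in homozygous cells. Of 25 glycolysis genes tested, 4 were called, each lower: the glucose transporter Slc2a1, the phosphofructokinase Pfkp, the lactate exporter Slc16a3 and Pfkfb3, which makes the activator of phosphofructokinase. With no limit on the size, 17 were lower and 1, the enolase gene Eno3, was higher (0.50, also named after its value was seen). The median was -0.27, and -0.19 after quantile normalization. Pfkp had values of 11.02, 11.02 and 11.03 in heterozygous and 10.50, 10.48 and 10.48 in homozygous samples, a difference of -0.54 ± 0.02 (SE, n = 3; limma, Benjamini-Hochberg adjusted p = 3.64e-05). Slc2a1 had values of 10.47, 10.42 and 10.41 against 9.89, 9.89 and 9.95, a difference of -0.53 (limma, Benjamini-Hochberg adjusted p = 0.000216). Slc16a3 had values of 9.17, 9.37 and 9.34 against 8.80, 8.74 and 8.70, a difference of -0.55 (limma, Benjamini-Hochberg adjusted p = 0.00462). Replicates of these genes lay close together and the genotypes did not overlap. Pfkfb3 had values of 5.84, 5.77 and 5.99 against 5.04, 5.21 and 5.36, a difference of -0.66 (limma, Benjamini-Hochberg adjusted p = 0.0242). Other enzymes, chosen after their values were seen, passed the adjusted p without reaching the limit on size: in the order of the pathway Gpi1 had a difference of -0.37, Pfkl of -0.47, Aldoa and Tpi1 of -0.30, Gapdh of -0.07, Pgk1 of -0.36, Pkm2 of -0.15 and Ldha of -0.27. Slc2a1, Pfkfb3 and Pdk1 belong to both lists, so the lists are not separate observations.

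**Figure D2:**
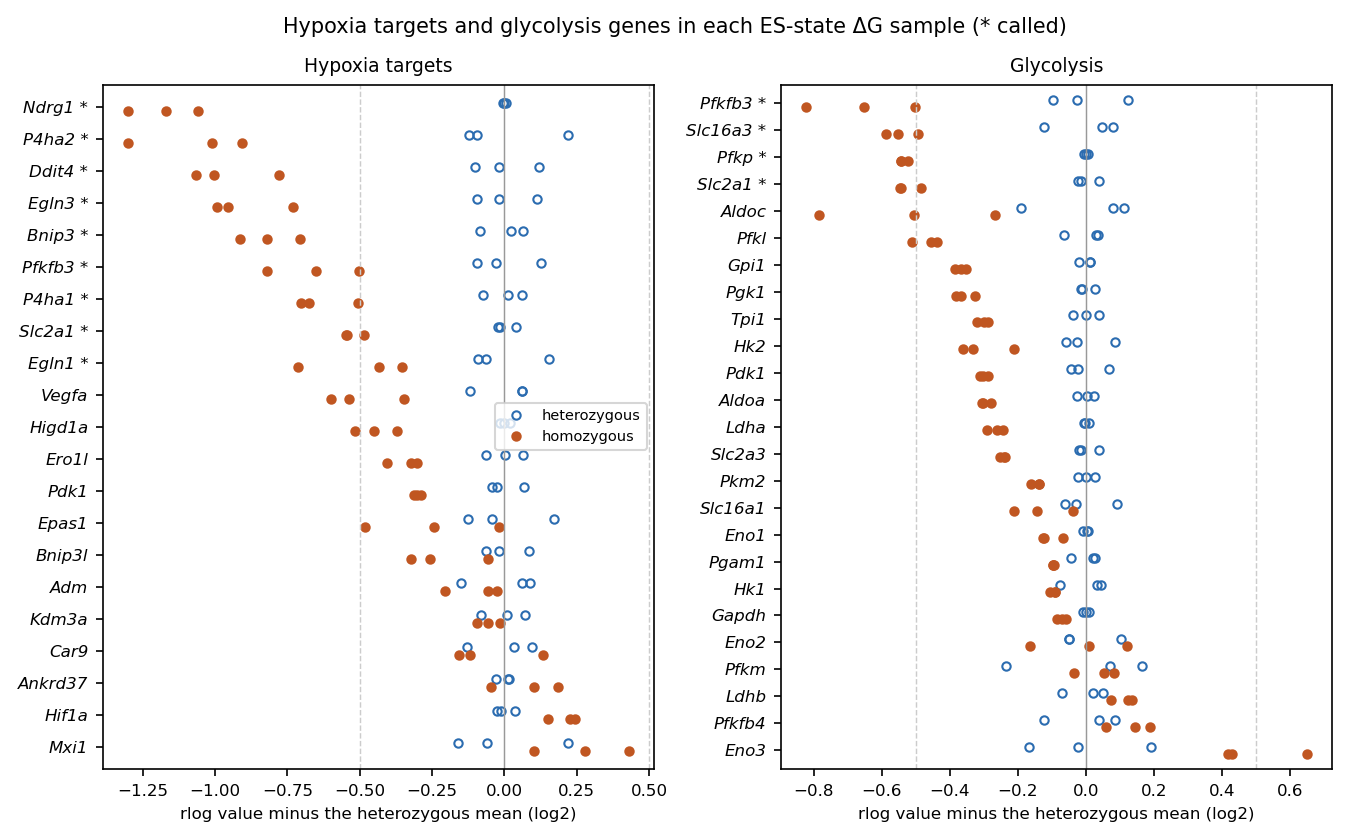
Rlog value of each ES-state ΔG sample minus the heterozygous mean of the gene (log2), for 21 hypoxia targets and 25 glycolysis genes; open circles are heterozygous, filled circles homozygous samples, dashed lines mark a difference of 0.5, and asterisks mark called genes. Ndrg1 is lowest at -1.18, and the homozygous samples lie to the left for most genes of both lists.

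Outside the hypoxia list, Loxl2, a lysyl oxidase that crosslinks collagen, had values of 8.00, 8.00 and 8.06 in heterozygous and 6.75, 6.92 and 6.98 in homozygous samples, a difference of -1.14 (limma, Benjamini-Hochberg adjusted p = 0.000347). Stc2, a secreted glycoprotein, had values of 6.89, 6.56 and 6.65 against 5.61, 5.71 and 5.70, a difference of -1.03 (limma, Benjamini-Hochberg adjusted p = 0.00249). Both groups of samples were apart in each gene. The integrated stress response list held 3 called genes of 30, Stc2, Ddit4 and Vldlr, each lower, and its median was -0.06. Ndufa4l2, a mitochondrial protein, fell by 0.89, and Pygl, a glycogen phosphorylase, fell by 0.92. Bhlhe40 (-0.68) and the phosphoglucomutase gene Pgm2 (-0.77) were also called, and are named here because of their known place in the hypoxia response and in glycogen metabolism, chosen after their values were seen. Serpinh1, the collagen chaperone, had a difference of -0.67 and was the called gene among 30 genes of basement membrane and matrix, whose median was -0.12, with 9 lower and 1 higher without the limit on size. Of these, the collagen gene Col4a1 had a difference of -0.46 and the laminin gene Lama1 one of -0.41.

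The largest rises came from 1 short stretch of chromosome 11. Rnf187, which encodes a RING-type ubiquitin ligase, had values of 4.63, 4.72 and 5.06 in heterozygous and 8.14, 8.13 and 8.23 in homozygous samples, a difference of 3.36 ± 0.12 (SE, n = 3; limma, Benjamini-Hochberg adjusted p = 3.64e-05). Hist3h2ba, a histone H2B gene, had values of 2.81, 3.24 and 3.18 against 6.18, 6.38 and 6.51, a difference of 3.28 ± 0.14 (SE, n = 3; limma, Benjamini-Hochberg adjusted p = 0.000128). Gm12260, an annotated pseudogene, had values of 2.62, 2.72 and 2.76 against 5.46, 5.29 and 5.36, a difference of 2.67 (limma, Benjamini-Hochberg adjusted p = 3.64e-05). No homozygous sample came near a heterozygous one in these genes, which were picked among genes without overlap. Rnf187 occupies chr11:58745790-58752418 on the minus strand of NCBIM37, and Hist3h2ba chr11:58762413-58763032 on the plus strand. With Hist3h2bb-ps (0.92) and Hist3h2a (0.59) they formed the longest run of adjacent called genes, 4 in a row. The call of Hist3h2a ended without heterozygous replicate 1 and without homozygous replicates 1 or 2, with differences from 0.52 to 0.58. Gm12260 lies inside Trim17, whose difference was 0.34 (limma, Benjamini-Hochberg adjusted p = 0.186), and Hist3h2a shares 32.3% of the 100-base windows of its transcript with Trim17. No window of the Rnf187 or Hist3h2ba transcripts occurred in the coding transcript of another gene.

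The X-linked Xlr genes, a rodent family of germ cell and lymphoid proteins, rose together. Of 9 members tested, 7 were called, each higher, with a median difference of 0.72 that was 0.75 after quantile normalization and 0.73 after median centring. Xlr3c had values of 3.58, 3.90 and 4.37 in heterozygous and 6.03, 6.07 and 5.82 in homozygous samples, a difference of 2.03 ± 0.20 (SE, n = 3; limma, Benjamini-Hochberg adjusted p = 0.00279). Xlr3a had values of 5.15, 5.23 and 4.96 against 6.46, 6.39 and 6.22, a difference of 1.24 (limma, Benjamini-Hochberg adjusted p = 0.00131). The genotypes did not overlap in either gene. The other called members were Xlr4b (0.91), Xlr4a (0.82), Xlr5a (0.72), Xlr3b (0.68) and Xlr5b (0.62), while Xlr4c (0.45) was short of the limit and Xlr5c (0.26) had an adjusted p of 0.395 in limma after Benjamini-Hochberg adjustment. The call of Xlr5b ended without heterozygous replicate 1 or homozygous replicate 1 (0.61 to 0.63), and that of Xlr3b after quantile normalization and without any 1 of 5 of the samples (0.55 to 0.76). Members share sequence: 69.6% of the 100-base windows of the Xlr3b transcript, 46.7% of those of Xlr3c and 36.3% of those of Xlr3a occur in another gene of the family. Reads of 1 member may therefore be counted for another or dropped, and how many members rose is uncertain. On chromosome X, 15 of 985 genes tested were called higher and 5 lower (2.03% called), so the Xlr genes make up 7 of the 15.

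**Figure D3:**
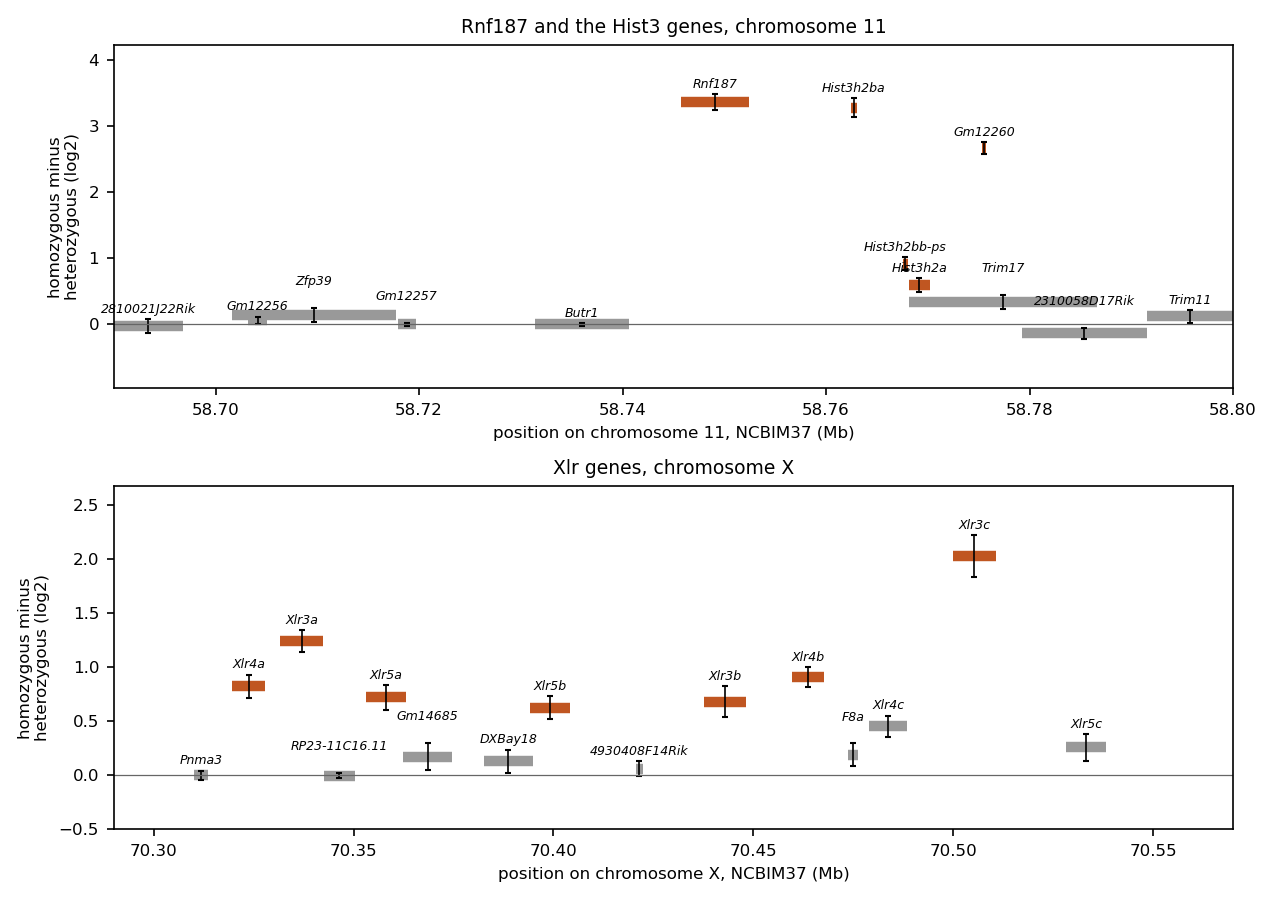
Homozygous minus heterozygous difference (log2, error bars are the SE) of the genes in 2 regions, drawn to scale along NCBIM37 positions (Mb), with called genes in orange. Rnf187, Hist3h2ba and Gm12260 stand at 3.36, 3.28 and 2.67 on chromosome 11 (Butr1 and Trim11 on either side are not called), and 7 Xlr genes stand between 0.62 and 2.03 on chromosome X.

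Some genes of the two-cell-like state fell. Of 16 tested, 4 were called, each lower, and the median was -0.32, with -0.27 after quantile normalization and -0.30 after median centring. Where genes with a mean value under 5 were left out, 1 member (0.08) was tested. Zscan4d, which encodes a factor of telomere maintenance and genome activation, had values of 5.20, 5.08 and 5.25 in heterozygous and 4.12, 4.23 and 4.23 in homozygous samples, a difference of -0.99 (limma, Benjamini-Hochberg adjusted p = 0.00213). Zscan4c had values of 5.08, 4.79 and 4.79 against 4.13, 4.29 and 4.23, a difference of -0.67 (limma, Benjamini-Hochberg adjusted p = 0.0256). Gm5662 fell by 0.75 and Tdpoz4 by 0.75. Their genotypes did not overlap. Without homozygous replicate 1, 2 of the 16 were called, since Zscan4c (-0.63) and Tdpoz4 (-0.67) lost their calls. Tdpoz4 also lost it without homozygous replicate 3 (-0.78) and after quantile normalization. Zscan4 copies are nearly alike: 65.8% of the 100-base windows of Zscan4c and 26.5% of those of Zscan4d occur in another gene, and 59.1% of those of Gm5662, so their separate values are uncertain, whereas 0 of 1014 windows of Tdpoz4 did.

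Other genes with large rises had various roles. Chd5, a nucleosome remodeller, had values of 5.16, 5.50 and 5.12 in heterozygous and 6.86, 6.94 and 6.73 in homozygous samples, a difference of 1.59 (limma, Benjamini-Hochberg adjusted p = 0.000813). The gene next to it on chromosome 4, Rpl22, had values of 11.10, 11.12 and 11.13 against 10.66, 10.72 and 10.63, a difference of -0.45 (limma, Benjamini-Hochberg adjusted p = 0.00024) below the limit on size. Rpl22l1, the paralogue of Rpl22 on chromosome 3, rose: its values were 8.46, 8.44 and 8.35 against 9.43, 9.40 and 9.48, a difference of 1.02 (limma, Benjamini-Hochberg adjusted p = 0.000111). The differences of these ribosomal protein paralogues thus had opposite signs, with no overlap of the genotypes in either gene. On chromosome X, Efhc2, an EF-hand gene, had a difference of 1.58, Wnk3-ps one of 1.23 and Gm364 one of 1.06. Pramel6, of a family expressed in the preimplantation embryo, had one of 0.92, S100a13 one of 0.87 and Eif2b3, a subunit of the guanine nucleotide exchange factor eIF2B, one of 0.85. Etv4, a transcription factor downstream of FGF signalling, rose by 0.72 with values of 6.14, 6.22 and 6.17 against 6.81, 6.99 and 6.89. Oas1a, an interferon-induced sensor of double-stranded RNA, rose by 0.58, a call that ended without homozygous replicate 3 (0.48).

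After 5430416N02Rik, the largest fall was that of A2m, a secreted protease inhibitor that is taken up through the lipoprotein receptor Lrp1. Its values were 7.57, 7.69 and 7.81 in heterozygous and 6.03, 6.34 and 6.26 in homozygous samples, a difference of -1.48 ± 0.10 (SE, n = 3; limma, Benjamini-Hochberg adjusted p = 0.0005). Lrp1 itself had values of 8.12, 7.90 and 8.04 against 7.40, 7.43 and 7.35, a difference of -0.63 (limma, Benjamini-Hochberg adjusted p = 0.00443). Vldlr, a receptor for reelin and lipoproteins, fell by 0.87 with values of 5.67, 5.61 and 5.57 against 4.93, 4.71 and 4.60. The genotypes of these genes were apart. They were the 3 genes called among 19 of the lipoprotein receptor list, whose median was -0.08. Without 1 sample this median lay between -0.14 (heterozygous replicate 1 left out) and -0.03 (homozygous replicate 2 left out). App, another partner of Lrp1, fell by 0.94 with values of 5.57, 5.86 and 5.74 against 4.75, 4.77 and 4.83. Prom1, the surface glycoprotein CD133, had values of 6.23, 6.19 and 5.91 against 4.76, 5.10 and 4.92, a difference of -1.18 (limma, Benjamini-Hochberg adjusted p = 0.00401). Krt19, a keratin of simple epithelia, had a difference of -0.82, and the chromatin gene Setbp1 one of -0.91, which lost its call without homozygous replicate 1 (-0.83).

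Of 52 axon guidance genes, 4 were called, each lower, with a median of -0.09: the semaphorins Sema3e (-0.81) and Sema7a (-0.52), the Slit receptor Robo1 (-0.81) and the ephrin receptor Ephb2 (-0.73). Robo1 had values of 6.40, 6.44 and 6.52 in heterozygous and 5.59, 5.79 and 5.55 in homozygous samples (limma, Benjamini-Hochberg adjusted p = 0.00462). The call of Sema3e ended without homozygous replicate 1 (-0.77), and that of Sema7a without each sample in turn (-0.59 to -0.41) and after quantile normalization. Further calls were those of Kank1 (-0.59), Kank3 (-0.56) and Hip1r (-0.59), which bind talin, actin regulators or clathrin, each lower. Kank1 had values of 5.90, 5.97 and 5.84 against 5.23, 5.35 and 5.35 (limma, Benjamini-Hochberg adjusted p = 0.0101). Mid1, the microtubule-bound ubiquitin ligase that the paper follows up, had a difference of -0.59 (limma, Benjamini-Hochberg adjusted p = 0.00988). Its binding partner Mid1ip1 had values of 4.83, 4.94 and 4.57 against 4.11, 3.99 and 3.92, a difference of -0.77 (limma, Benjamini-Hochberg adjusted p = 0.0209). Each homozygous sample lay below the heterozygous ones for Mid1ip1. These were the 2 called among 26 genes of the list of MID1, PP2A and CDC25B, whose median was 0.01 (-0.01 without heterozygous replicate 1).

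In the Nodal and Activin list, Skil, a corepressor of SMADs, fell by 0.53 with values of 8.92, 8.89 and 8.87 against 8.31, 8.41 and 8.36. Of the 21 members of the list tested, 15 had a negative difference and limma gave 9 an unadjusted p under 0.05, with a median of -0.09. This median was -0.01 without heterozygous replicate 1 or without homozygous replicate 3. Tdgf1, the Nodal coreceptor, had a difference of -0.35 (limma, Benjamini-Hochberg adjusted p = 0.000452) and did not reach the limit. In the FGF list of 30 genes (median -0.01, with a sign that changed with median centring), Etv4 was higher, and Fgfrl1, an FGF receptor without a kinase domain, was lower (-0.56), a call that ended without any 1 of 5 of the samples (-0.62 to -0.47) and after quantile normalization. In the retinoic acid list of 22 genes, the homeobox gene Meis2 was called higher (0.57). Id2 (-0.65) was called in the BMP list of 24 genes but not without homozygous replicates 1 or 3 (-0.68 to -0.57), and Jag2 (-0.66) in the Notch list of 22 genes but not without 4 of the samples in turn (-0.70 to -0.54), and neither was called after quantile normalization. The medians of the retinoic acid and Notch lists lay within 0.01 of 0 and changed sign with the scaling.

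Other lists moved by less than the limit on size, with many members on 1 side. Over all genes tested, the shares were 58.5% with a negative difference and 15.4% with an unadjusted p under 0.05 in limma. The 11654 genes with a mean value of at least 3 held 204 of the 217 calls. The shares include the genes below that level, so they are not a matched background for the counts that follow. Whether these counts exceed the shares among expressed genes was not tested. Limma called 0 of 24 cholesterol synthesis genes, with an unadjusted p under 0.05 for 12, while 22 had a negative difference, 8 were lower without the limit on size, and the median was -0.20 (-0.20 after quantile normalization). Sc4mol, which encodes a sterol methyl oxidase, had values of 9.28, 9.22 and 9.27 in heterozygous and 8.86, 8.84 and 8.90 in homozygous samples (difference -0.39; limma, Benjamini-Hochberg adjusted p = 0.00215). Of 79 cytosolic ribosomal protein genes, 1 was called, Rpl22l1, but 45 were lower and 3 higher without the limit, with a median of -0.11 (-0.08 after quantile normalization). Limma called 0 of 12 mitochondrially encoded genes, with an unadjusted p under 0.05 for 10, while all 12 differences were negative, with a median of -0.19 (-0.13 after quantile normalization). The lysosome list had a median of -0.11 with 31 of 38 differences negative and 0 called by limma, with an unadjusted p under 0.05 for 18. In the other direction, 31 of 34 proteasome genes had a positive difference, with a median of 0.10 (0.07 after quantile normalization). Limma called 0 of them, with an unadjusted p under 0.05 for 16, and 5 were higher without the limit. The cytosolic chaperones Hspa8 and Hsp90aa1 were higher under that rule, Hspa8 with values of 12.51, 12.53 and 12.49 against 12.79, 12.78 and 12.77 (difference 0.27; limma, Benjamini-Hochberg adjusted p = 0.000151) and Hsp90aa1 with a difference of 0.25.

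The summed level of the fibroblast list of 18 genes was 4540, 4532 and 4581 in heterozygous and 3727, 3766 and 3793 in homozygous samples, most of it Fn1, which ESCs express too. Fn1 had a difference of -0.33 (limma, Benjamini-Hochberg adjusted p = 0.000151), limma called 0 members, with an unadjusted p under 0.05 for 3, and the part of other cell types in the results was not tested. Among cell cycle genes, limma called 0 of 43 S-phase genes (unadjusted p under 0.05 for 14, median 0.06) and 0 of 53 G2/M genes (16, median 0.03). Of the cell cycle inhibitors, Cdkn1b had a difference of -0.34 (limma, Benjamini-Hochberg adjusted p = 0.0567), and the cyclin gene Ccnd3 one of 0.33 (limma, Benjamini-Hochberg adjusted p = 0.00812). Limma called 0 of 21 p53 targets, with an unadjusted p under 0.05 for 5 and a median within 0.01 of 0 whose sign changed with the scaling.

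**Figure D4:**
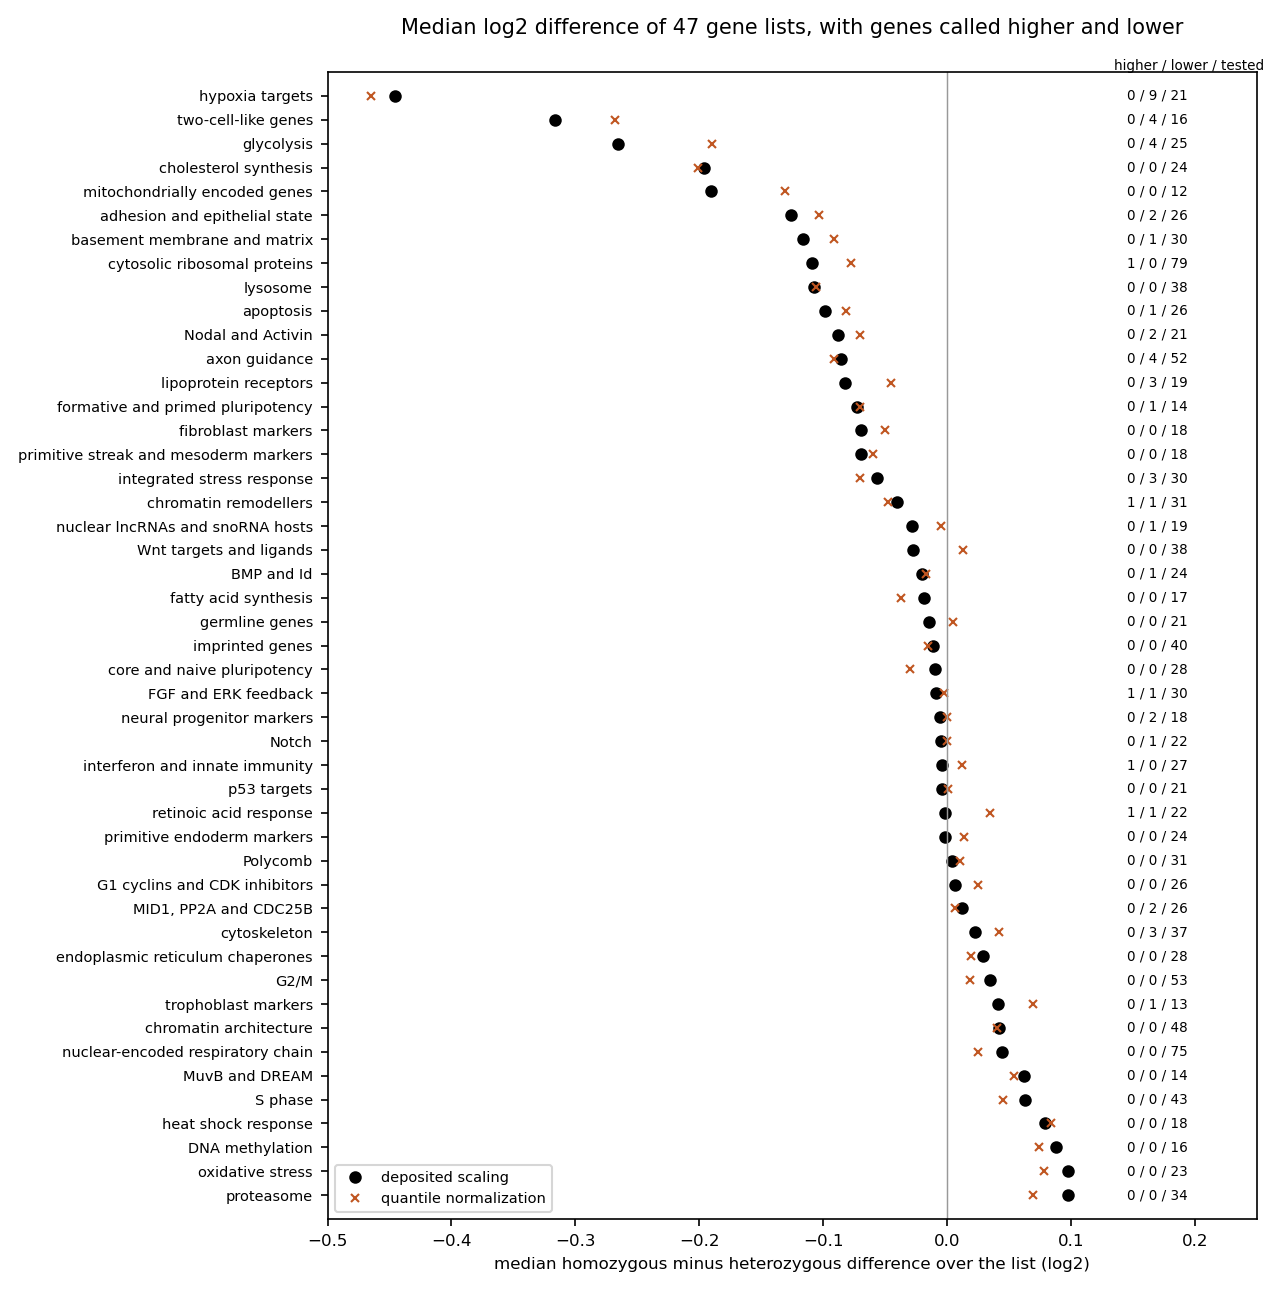
Median homozygous minus heterozygous difference (log2) of 47 gene lists as deposited (circles) and after quantile normalization (crosses), with the number of members called higher, called lower and tested at the right. Hypoxia targets lie lowest (-0.45, 9 of 21 lower), followed by two-cell-like genes (-0.32) and glycolysis (-0.27), and proteasome genes are at the other end (0.10), while lists near 0, such as p53 targets and Wnt targets, change sign with the scaling.

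Grouped by symbol, 14 of 787 families with at least 4 members tested had 2 or more called genes. Only the Xlr family among these had most of its members called. The solute carriers had 5 called of 323 tested: Slc15a2 and Slc11a1 higher, and Slc1a3, Slc16a3 and Slc2a1 lower. Slc15a2, a peptide transporter, had a difference of 0.74, a call that ended without homozygous replicates 1 or 3 (0.71 to 0.75), and Slc1a3, a glutamate transporter, one of -0.74. In the Ndrg family, Ndrg2 had values of 6.88, 6.78 and 6.88 in heterozygous and 6.34, 6.11 and 6.08 in homozygous samples, a difference of -0.67 (limma, Benjamini-Hochberg adjusted p = 0.00988), so that 2 of 4 members were lower. Among 68 histone genes, the 3 called were Hist3h2ba, Hist3h2bb-ps and Hist3h2a, and the median was -0.01. Of 216 called genes with a single annotated locus, 18 lay next to another called gene, in 8 runs, 7 of which had 1 direction. On the Y chromosome, 3 of 11 genes were called, and its neighbours Kdm5d (0.82) and Eif2s3y (-0.61) went opposite ways, a call that Kdm5d lost without homozygous replicate 1 (0.77). Kdm5d was chosen after its values were seen.

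The homozygous minus heterozygous difference after RA minus that in the ES state was tested in the 12 ΔG samples, and 524 genes (2.38%) were called for this difference. Of the hypoxia targets, 7 of 21 were among them. Slc2a1 (0.82; limma, Benjamini-Hochberg adjusted p = 4.04e-11) and Pfkfb3 (1.09; limma, Benjamini-Hochberg adjusted p = 3.44e-05) had differences above 0 after RA. Ndrg1 (0.78; limma, Benjamini-Hochberg adjusted p = 0.00383) and Ddit4 (0.73; limma, Benjamini-Hochberg adjusted p = 0.00695) had smaller falls after RA. These genes were named as called in the ES state, and the same ES values enter this test, so the choice favours smaller falls after RA. In RA-treated cells 1.46% of the genes tested were called lower and 0.676% higher. There, 1 of 21 hypoxia targets was called lower, Bnip3 (-0.51), 0 were called higher, and the median of the list was -0.09. The glycolysis list, with 5 of 25 genes called for the difference, had a median of 0.02 after RA. Two-cell-like genes kept a negative median after RA (-0.77), where 12 of 16 were called lower, and 2 were called for the difference between the states. Rnf187 had a difference of 3.50 after RA, and its effect there minus that in the ES state was 0.14 (limma, Benjamini-Hochberg adjusted p = 0.697). After quantile normalization this difference of effects was called for Rnf187 (0.57; limma, Benjamini-Hochberg adjusted p = 0.0377). Hist3h2ba had one of 4.79, larger than in the ES state by 1.52 (limma, Benjamini-Hochberg adjusted p = 2.15e-05). Of the Xlr family, 2 of 9 were called higher after RA, and 3 were called for the difference, Xlr3a by -1.08 (limma, Benjamini-Hochberg adjusted p = 3.57e-05). For Xlr4b (-0.69) this call ended without 9 of the 12 samples in turn (-0.71 to -0.60).

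In ΔPG ESCs, whose table was normalized separately, 6.87% of 21979 genes tested were called higher and 6.29% lower in homozygous cells, and the difference between ΔG and ΔPG was not tested. There, 4 of 21 hypoxia targets were called, each higher, with a median of 0.06, and Bnip3 had a difference of 0.81. Glycolysis genes had a median of -0.28 with 4 of 25 called, each lower, Slc16a3 with -0.52 among them. Two-cell-like genes had a median of 0.37, with 7 of 16 called higher. Rnf187 had a difference of -0.53 and Xlr3c one of -0.53, each opposite in sign to that in ΔG ESCs. Rpl22l1 had one of 0.98, and Rpl22 one of 0.72, in a table in which 34 of 79 ribosomal protein genes were called higher (median 0.43). All 12 mitochondrially encoded genes tested were called higher in ΔPG ESCs, with a median of 2.01, and the part of this shift in the other ΔPG values was not tested.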

How the data were processed

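RNA-seq values of 6 samples were compared, with 12 other samples beside them. The authors aligned reads with TopHat2 (2.1.0) to NCBI37/mm9, removed duplicates, counted reads per gene and strand with HTSeq (0.6.0) and deposited DESeq2 (1.14.1) rlog values on the log2 scale, so no depth is known. Genes that varied were tested with limma (3.58.1, R 4.3.3; linear fit, moderated with a variance trend) and Benjamini-Hochberg adjustment, and the procedure was tested on simulated data. Figures used matplotlib (3.10.9). Named genes are those of the paper, the 15 largest rises and falls whose samples do not overlap, called members of lists and symbol families, up to 3 members of lists without a call, and neighbours. Members and lists were chosen with earlier results of these data known. Alternatives were other limits, spread estimates, filters and scalings, a block, and leaving out samples. The 4C-seq, capture-C and RIP-seq samples were not used.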

Additional observations from a re-analysis of the deposited data

Results flagged for a closer look

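Each result here was flagged because the homozygous minus heterozygous difference after RA minus that in the ES state passed limma's test of that difference in the 12 ΔG samples (Benjamini-Hochberg adjusted p under 0.1 and a size over 0.5), in genes of the naming rule. Among genes lower in homozygous cells in the ES state, the difference of effects was 1.26 for A2m, 1.02 for Prom1, 0.78 for Ndrg1, 1.09 for Loxl2 and 0.58 for P4ha2. For Stc2 it was 0.88, for Ddit4 0.73, for App 0.64 and for Setbp1 0.60. P4ha2 was not called after quantile normalization (0.43), without heterozygous ES replicate 3 (0.47) or without homozygous ES replicate 2 (0.46). Setbp1 was not called after quantile normalization (0.50) or without 7 of the 12 samples in turn (0.50 to 0.60). Among genes higher in homozygous cells in the ES state, it was 1.52 for Hist3h2ba, 0.94 for Hist3h2bb-ps and 0.95 for Chd5, which had larger rises after RA. It was -0.94 for Xlr3c, -1.08 for Xlr3a, -0.69 for Xlr4b, -0.77 for S100a13 and -1.03 for Gm14136. Xlr4b was not called without 9 of the 12 samples in turn (-0.71 to -0.60). For Hand1, a mesoderm and trophoblast factor that was not called in the ES state (-0.01), it was 0.82.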

How the results depend on the processing

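No call was reversed under any alternative. Of 217 called genes, 117 (46 higher, 71 lower) passed an adjusted p under 0.05 with a fold over 1.5. Over all 22048 genes tested, 1152 (528 higher, 624 lower) passed with no limit on the size. Quantile normalization left 78 lower, and a filter on a mean of at least 5 gave 134 calls with 81 lower. Leaving out a sample gave 146 to 201 calls, with 57 to 78 higher and 89 to 130 lower. The 2 genotypes share only replicate numbers: with a replicate block 44 genes were called, 19 higher and 25 lower, and same-number correlations were 0.0111, 0.0026 and 0.0084. A block within each treatment also ended the call of the difference of effects for Setbp1 (limma, Benjamini-Hochberg adjusted p = 0.103). The homozygous minus heterozygous difference after RA minus that in the ES state gave 268 calls at the strict limits, 1164 with no limit on the size and 419 to 472 without a sample. The causes of these changes were not tested. The rlog values carry no counts, so the limits that depth sets are unknown.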

Other observations

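Several called genes were not described in detail so far. Ncam1, a neural cell adhesion molecule, had values of 8.04, 7.99 and 7.79 in heterozygous and 7.44, 7.46 and 7.23 in homozygous samples, a difference of -0.57 (limma, Benjamini-Hochberg adjusted p = 0.0218) that was not called without homozygous replicate 3 (-0.49). Cdh2, the cadherin of neural and mesenchymal cells, had a difference of -0.60 (limma, Benjamini-Hochberg adjusted p = 0.0914), a call that ended without any 1 of 5 of the samples (-0.66 to -0.51). The call of Cdh2 also ended after quantile normalization and without the variance trend. Chd7, a remodeller related to Chd5, was called lower (-0.50), and this ended without 4 of the samples in turn (-0.54 to -0.38). It was also not called after quantile normalization or median centring.

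The genes of this paragraph were chosen after their values were seen. AY036118, annotated as a pseudogene, had values of 10.95, 10.95 and 11.06 in heterozygous and 10.30, 10.33 and 10.31 in homozygous samples (-0.67), with a difference of 1.74 after RA. AC157822.1, a short RNA gene, had values of 11.18, 6.87 and 8.81 against 8.85, 11.18 and 11.23, so its replicates spread widely and it was not called (1.47; limma, Benjamini-Hochberg adjusted p = 0.64).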
